A study of Zea mays with 6 samples.

Results

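The psbB to petD cluster of the maize plastid genome is a run of 6 consecutive genes, psbB, psbT, psbN, psbH, petB and petD, with the IDs ZemaCp048 to ZemaCp053. The members were taken by these IDs and none was left out, so that 6 of 33953 measured features, and of 104 plastid features, are described. Transcripts were measured in leaves of the inbred line KN5585 by RNA sequencing in 3 libraries from transgenic plants and 3 libraries from control plants. By the series title the transgenic maize makes poly-γ-glutamic acid, a chain of glutamate units, and the comparison is between genotypes that were both under drought. Transgenic and control seedlings alike were grown in pots of 2, lost their water supply when 3 leaves were out, and were sampled after 5 days, when the soil held 9.8% water. Neither group was watered normally, so no value here measures drought itself. The transgene, its promoter, the number of transformation events and whether a library pools several plants are not stated by the labels. Spread between libraries of a group may therefore be technical, and the p-values measure that spread alone.

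Apart from psbN, the genes of this cluster are transcribed together. Their common transcript is processed into smaller RNAs, and nuclear-encoded proteins that bind between the genes take part in this processing. Products of the cluster serve successive complexes of photosynthetic electron transport. Photosystem II splits water and passes electrons to plastoquinone, and the cytochrome b6f complex passes them on towards photosystem I. In most plants psbN lies on the opposite strand to its neighbours, and petB and petD each hold an intron. Maize leaves hold mesophyll and bundle sheath plastids, and photosystem II is scarcer in the bundle sheath.

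Values are FPKM, fragments scaled by gene length and by mapped fragments, as the authors deposited them. They summed to between 1226614 and 1238707 in transgenic and between 1208094 and 1226198 in control libraries. With the mRNA kit used for all libraries, plastid features, second copies included, held 0.496 to 0.570% of FPKM in transgenic and 0.193 to 0.221% in control libraries. A difference in the capture of plastid RNA, in the number of plastid-bearing cells or in plastid RNA per cell cannot be told apart from a transcript change here. Of the green-leaf markers, psaA had 39.7 ± 5.07 FPKM in transgenic and 4.20 ± 0.546 FPKM in control leaves (SD, n = 3 each), rbcL was not used here, and nuclear markers could not be looked up because no nuclear ID matched a symbol. The share of each cell type was therefore not tested.

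Within the cluster the genes did not move together. In transgenic leaves petD (ZemaCp053) fell to 22.4% of its control level and psbB and petB fell by smaller amounts, while psbH rose 1.84-fold, and psbT and psbN did not pass the test. The genes on both sides, clpP and rpoA, rose by 1.63 or more on the log2 scale. By limma on log2(FPKM + 1), with p-values adjusted by Benjamini-Hochberg over all 22200 tested features, 1 member was higher and 3 were lower. Of all tested features 73.0% passed, 27.0% higher and 45.9% lower, so that 4 calls among 6 members are near the background. Of the 66 tested plastid features, a second copy counted once, 78.8% passed, 62.1% higher and 16.7% lower. For 4 of the 6 members the groups did not overlap, as against 75.3% of all tested features and 78.8% of the plastid features. The median log2 fold change of the members was -0.45, beside -0.31 over all tested features and 1.20 over the 60 tested plastid features outside the cluster.

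**Figure D1:**
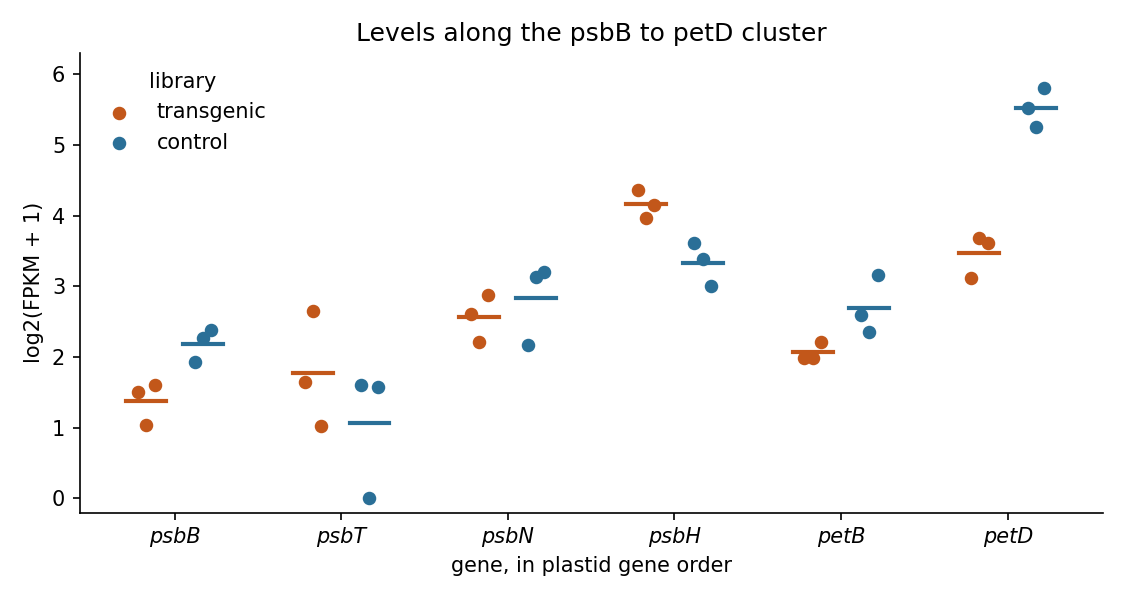
Level of each cluster gene in each library, as log2(FPKM + 1), with genes in plastid order. Points are libraries, 3 transgenic (left) and 3 control (right) per gene, and bars are group means. The largest gap is at petD, at 7.68 to 11.9 FPKM in transgenic against 37.0 to 55.1 FPKM in control libraries, and psbH is the gene whose FPKM is higher in every transgenic library.

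The first gene, psbB (ZemaCp048), encodes CP47, an inner antenna protein of the photosystem II core. It had 1.85, 1.05 and 2.05 FPKM in transgenic leaves, against 2.80, 3.82 and 4.20 FPKM in control leaves. Every transgenic library lay below every control library. Its log2 fold change was -0.81 (SE 0.23; limma, adjusted p = 0.0107), and the group means were 1.65 ± 0.529 FPKM in transgenic and 3.61 ± 0.724 FPKM in control leaves. This call was lost with median-of-ratios scaling, which moves the median of all genes to 0.04 (log2 fold change -0.53; limma, adjusted p = 0.0670). With libraries scaled to their plastid features the log2 fold change was -1.62 (limma, adjusted p = 0.00011).

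The following gene, psbT (ZemaCp049), encodes a very small photosystem II subunit. Its values of 2.13, 5.30 and 1.03 FPKM in transgenic leaves, against 2.05, 0 and 1.99 FPKM in control leaves, covered each other. The log2 fold change of 0.71 had an SE of 0.52 and did not pass (limma, adjusted p = 0.246). Without control replicate 2, the library in which psbT is listed at 0, it was 0.18 (limma, adjusted p = 0.723).

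Deposited values of the 3 shortest genes moved in visible steps. After allowing for the relative depth of the libraries, which lay between 0.960 and 1.03 of control replicate 1, the 6 values of psbT were whole multiples of 1.02 FPKM, with the largest distance from a whole number at 0.00224 of a step. Taking 1 step as 1 fragment, which is an estimate, psbT rested on 2, 5 and 1 fragments in transgenic leaves and on 2, 0 and 2 fragments in control leaves. The comparison of psbT therefore stood on 8 fragments in all transgenic libraries and 4 in all control libraries. No difference between the genotypes was detected at this depth, and how large a difference could have been seen was not tested. In the same way psbN rested on 7, 5 and 9 steps in transgenic and on 5, 11 and 12 steps in control leaves. For psbH the numbers were 52, 39 and 46 in transgenic and 31, 26 and 20 in control leaves, within 0.0377 of a whole step. Since the absolute depth is not known, no counting interval is attached to these numbers.

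The small gene psbN (ZemaCp050) encodes a protein that, in tobacco, is needed to assemble photosystem II and is no stable part of it. It had 5.11, 3.63 and 6.36 FPKM in transgenic leaves, against 3.51, 7.74 and 8.19 FPKM in control leaves. The lowest value of all was in control replicate 1, and the groups overlapped. The log2 fold change was -0.27 (SE 0.30; limma, adjusted p = 0.441). It passed without control replicate 1 (-0.60; limma, adjusted p = 0.0415), turned to 0.06 with median-of-ratios scaling, and so had no settled direction. Whether counting used the strand is not stated by the labels, so reads of transcripts that run through psbN on the other strand cannot be told apart from its own.

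The only member called higher was psbH (ZemaCp051), which encodes a phosphoprotein subunit of photosystem II. It had 19.6, 14.6 and 16.7 FPKM in transgenic leaves, against 11.2, 9.42 and 7.03 FPKM in control leaves. Every transgenic library lay above every control library. The log2 fold change was 0.83 (SE 0.18; limma, adjusted p = 0.00276), and it stayed past the threshold whichever 1 library was left out. It was 1.18 with median-of-ratios scaling, 1.09 with quantile normalization and 0.80 with libraries set to the same total, all past the threshold. When libraries were scaled to their plastid features it was -0.29 and did not pass (limma, adjusted p = 0.185). Among the 66 tested plastid features, psbH stood at place 32 by mean FPKM in transgenic and at place 33 in control leaves.

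Next along the cluster is petB (ZemaCp052), which encodes cytochrome b6, a haem-bearing subunit of the cytochrome b6f complex. It had 2.98, 2.96 and 3.64 FPKM in transgenic leaves, against 5.02, 4.12 and 7.90 FPKM in control leaves. Transgenic values were close together and below all control values, whereas control replicate 3 stood above the other control libraries. The log2 fold change of -0.64 (SE 0.23; limma, adjusted p = 0.0304) was near the threshold. The call was lost with median-of-ratios scaling (-0.32; limma, adjusted p = 0.228), with quantile normalization (-0.44; adjusted p = 0.110) and with no filter on low values (-0.64; adjusted p = 0.0855). It was also lost without control replicate 3 (-0.41; limma, adjusted p = 0.0836), without transgenic replicate 1 (-0.60; adjusted p = 0.0856) and without transgenic replicate 2 (-0.60; adjusted p = 0.0859). With libraries scaled to their plastid features it was -1.59 (limma, adjusted p = 0.000246).

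The last gene, petD, encodes subunit IV of the cytochrome b6f complex, which together with cytochrome b6 forms the quinone-binding core. It had 7.68, 11.9 and 11.2 FPKM in transgenic leaves, against 45.1, 37.0 and 55.1 FPKM in control leaves. The lowest control value was 3.11 times the highest transgenic value. The log2 fold change of -2.06 (SE 0.19; limma, adjusted p = 1.09e-05) was past the threshold under every alternative run, between -3.18 and -1.69. In the order of fold changes among the 66 tested plastid features petD was second from the bottom, above psbA, and its place by mean FPKM was 42 in transgenic and 14 in control leaves.

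**Figure D2:**
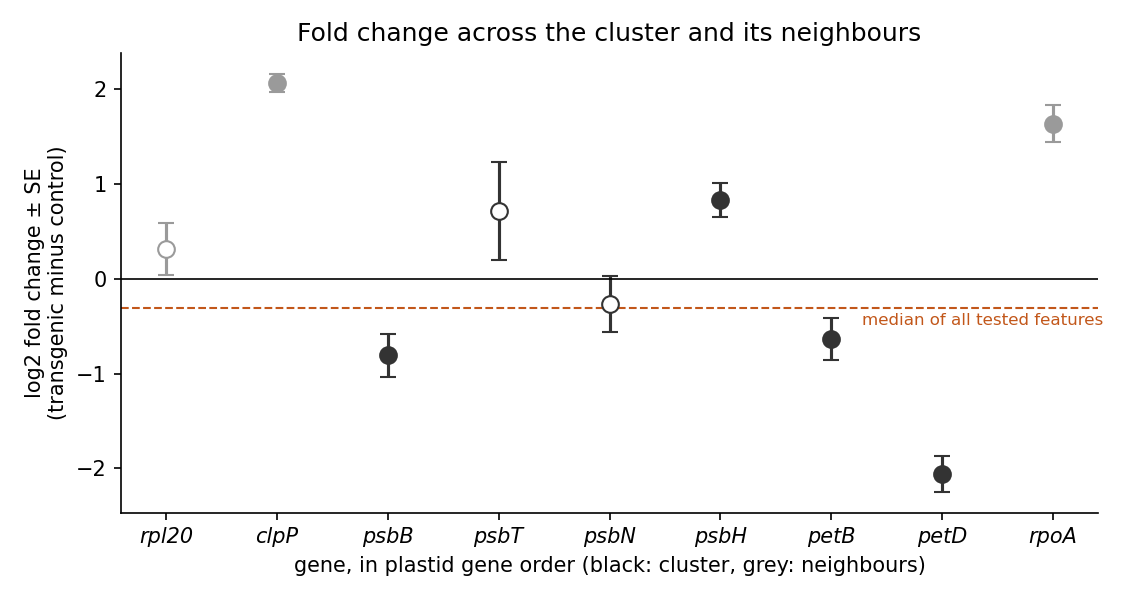
Log2 fold change (transgenic minus control, from limma on log2(FPKM + 1)) with its SE, for the cluster (black) and the neighbouring genes rpl20, clpP and rpoA (grey), in plastid order. Filled points passed an adjusted p of 0.05, and the dashed line is the median of all tested features, -0.31. The fold changes drop from 2.06 at clpP to -0.81 at psbB, and rise from -2.06 at petD to 1.63 at rpoA.

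On either side of the cluster, clpP and rpoA had fold changes above those of all 6 members. On the upstream side clpP, which encodes the proteolytic subunit of a plastid protease, averaged 64.5 ± 3.63 FPKM in transgenic and 14.8 ± 1.32 FPKM in control leaves (log2 fold change 2.06, SE 0.10; limma, adjusted p = 1.4e-07). Before it, the ribosomal protein gene rpl20 did not pass (0.31, SE 0.27; limma, adjusted p = 0.326). On the downstream side rpoA, which encodes the alpha subunit of the plastid-encoded RNA polymerase, averaged 13.6 ± 1.63 FPKM in transgenic and 3.78 ± 1.05 FPKM in control leaves (log2 fold change 1.63, SE 0.20; limma, adjusted p = 6.77e-05).

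The order of levels along the cluster changed with the genotype. FPKM is per length, but whether the mRNA kit captured the RNA of each gene equally was not tested. The order given here is therefore one of FPKM, not of transcript abundance. It is also not known whether the lengths used for petB and petD count the intron, and FPKM of the shortest genes is the least certain. In transgenic leaves psbH was highest and petD next, without overlap between them or between petD and psbN. Below these, psbN, petB, psbT and psbB followed, and the values of each overlapped with those of the next. In control leaves petD was highest, above psbH in all 3 libraries and without overlap. The values of psbH, psbN, petB and psbB each overlapped with the next in that order, and psbT was lowest, without overlap with psbB.

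Summed over the 6 genes, FPKM was 39.3, 39.4 and 41.0 in transgenic libraries, against 69.7, 62.1 and 84.4 in control libraries. Of this sum petD held 25.6 ± 5.48% in transgenic and 63.2 ± 3.14% in control leaves, and psbH held 42.5 ± 6.54% in transgenic and 13.2 ± 4.24% in control leaves (SD, n = 3 each). Without petD the sums overlapped, at 27.5 to 31.6 FPKM in transgenic and 24.6 to 29.3 FPKM in control libraries. All 104 plastid features together, with second copies of a gene counted again, summed to 6681 ± 471 FPKM in transgenic and 2497 ± 159 FPKM in control leaves. The cluster thus held 0.600 ± 0.0588% of plastid FPKM in transgenic and 2.89 ± 0.473% in control leaves. These sums describe the libraries and were not tested.

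To ask whether neighbours in the cluster differed in their response, the log2 ratio of each gene to the one before it was taken within each library, which cancels the scaling between libraries apart from the pseudocount of 1. The ratio of petD to petB was 1.12, 1.70 and 1.39 in transgenic leaves, against 2.94, 2.89 and 2.66 in control leaves. These groups did not overlap, and the difference of their means was -1.42. The ratio of petB to psbH was -2.37, -1.98 and -1.93 in transgenic leaves, against -1.02, -1.03 and 0.15 in control leaves. Again the groups did not overlap, and the difference was -1.46. For both pairs an exact two-sided permutation test gave p = 0.1, the smallest that 3 libraries against 3 allow, and 0.25 after adjustment over the 5 pairs. This permutation test cannot pass the threshold with 3 libraries against 3.

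The other 3 ratios overlapped between the genotypes. That of psbH to psbN averaged 1.59 ± 0.278 in transgenic and 0.50 ± 0.843 in control leaves (n = 3 each; exact permutation test, p = 0.2). The 2 ratios that involve psbT had SDs of 1.02 to 1.29, wider than those of the other pairs in both groups, and their differences were 1.52 for psbT to psbB (exact permutation test, p = 0.2) and -0.98 for psbN to psbT (exact permutation test, p = 0.5). Without control replicate 2 these were 0.95 and -0.30, and without transgenic replicate 2 they were 0.90 and -0.36. With a pseudocount of 0.1 they were 2.75 and -1.94.

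**Figure D3:**
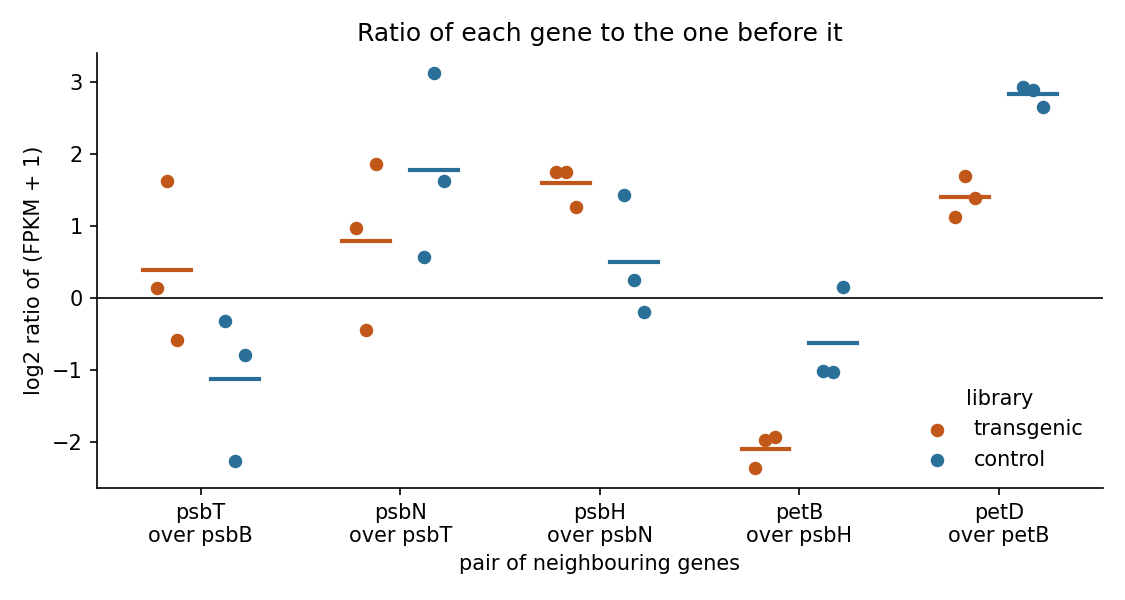
Log2 ratio of (FPKM + 1) between each cluster gene and the one before it, in each of 3 transgenic (left) and 3 control (right) libraries, with bars at the group means. The ratios of petB to psbH and of petD to petB are lower in all transgenic libraries, and the 3 ratios nearer to psbB overlap.

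The cluster shares its complexes with genes elsewhere in the plastid. Of 10 other photosystem II genes, all tested, 2 were higher, 4 lower and 4 not past the threshold. The median of their log2 fold changes was -0.31. These counts stand beside 62.1% higher and 16.7% lower of tested plastid features, and 27.0% and 45.9% of all tested features. With median-of-ratios scaling or quantile normalization 4 of the 10 were higher. With libraries scaled to plastid features 0 were higher and 8 lower, so that the balance of this list depends on the scaling. The reaction centre gene psbA had 1.30 ± 0.778 FPKM in transgenic and 159.7 ± 6.35 FPKM in control leaves (log2 fold change -6.19, SE 0.24; limma, adjusted p = 3.89e-08). The other inner antenna gene, psbC, which encodes CP43, fell by 1.67 (SE 0.11; limma, adjusted p = 1.16e-06), and psbB by 0.81. Of the cytochrome b559 genes, psbE fell by 1.19 (SE 0.25; limma, adjusted p = 0.0023). The other, psbF, passed at -1.38 (SE 0.54; limma, adjusted p = 0.0444), but its groups overlapped and the call was lost when any library except control replicate 3 was left out (limma, adjusted p = 0.0515 to 0.147). Upward calls were those of psbZ at 2.08 (SE 0.39) and psbK at 0.91 (SE 0.11). The fold changes of psbI, psbJ, psbL and psbM lay between -0.41 and 0.38 and did not pass. Of these, psbI passed without transgenic replicate 1 (0.46; limma, adjusted p = 0.0293), psbM without control replicate 1 (0.64; adjusted p = 0.000724) and psbL without transgenic replicate 2 (-0.84; adjusted p = 0.0418). The genes psbD and psb30 were not used here.

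The cytochrome b6f complex has 4 plastid genes outside the cluster. Of these 3 were higher and 0 lower with FPKM as deposited, and 0 were higher and 0 lower with libraries scaled to plastid features. Of the tested plastid features 62.1% were higher and 16.7% lower as deposited, against 27.0% and 45.9% of all tested features. The cytochrome f gene petA averaged 9.34 ± 0.781 FPKM in transgenic and 5.48 ± 1.37 FPKM in control leaves (log2 fold change 0.69, SE 0.18; limma, adjusted p = 0.00759). The small subunit genes petG and petN rose by 0.99 (SE 0.17; limma, adjusted p = 0.000655) and 1.16 (SE 0.31; adjusted p = 0.00858), petN losing its call with no filter (adjusted p = 0.0614), and petL, at 0.33 (SE 0.37), did not pass (limma, adjusted p = 0.437). With FPKM as deposited all 4 estimates lay above 0, whereas those of petB and petD lay below it. With libraries scaled to plastid features petA and petG turned to -0.36 and -0.20, with no call, and the difference between the genes inside and outside the cluster was not tested.

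**Figure D4:**
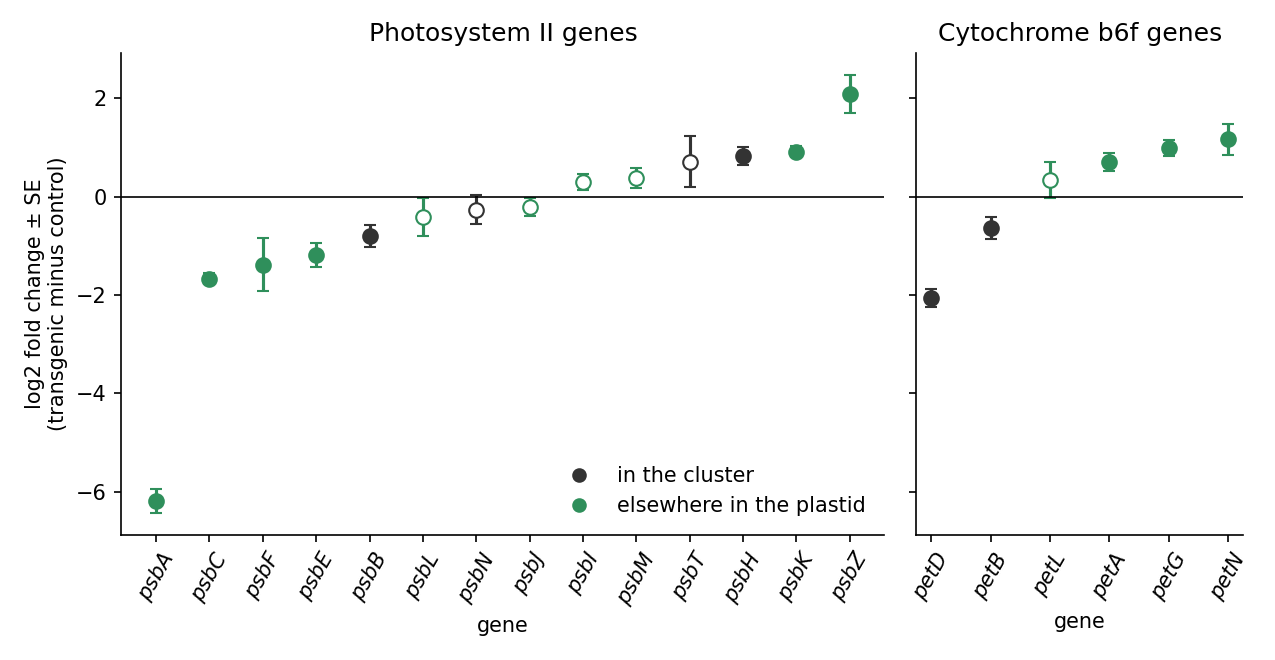
Log2 fold change (transgenic minus control) with its SE for plastid genes of photosystem II and of the cytochrome b6f complex, ordered by size. Black points are in the cluster, green points elsewhere in the plastid, and filled points passed an adjusted p of 0.05. The cluster holds the 2 lowest b6f genes, petD at -2.06 and petB at -0.64, while its photosystem II genes lie between psbE at -1.19 and psbK at 0.91.

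Across the 6 libraries, the plastid genes with profiles most like each member were found by the smallest distance between gene-centred log2(FPKM + 1) values, among 57 candidates with a symbol. The nearest to petD was psbC at a distance of 0.77. It averaged 12.2 ± 0.679 FPKM in transgenic and 41.0 ± 4.31 FPKM in control leaves, close to the levels of petD in both. The nearest to psbH were infA, which encodes a translation initiation factor, at 0.33 and petG at 0.41. Both psbB and petB had rpoC1, which encodes a subunit of the plastid RNA polymerase, as nearest (0.59 and 0.42). Levels of rpoC1 were low, at 0.537 ± 0.169 FPKM in transgenic and 1.54 ± 0.458 FPKM in control leaves, where the pseudocount of 1 shrinks differences. After rpoC1 came psbE (0.86 and 0.70), which was also second for petD (1.23). For psbN the nearest were psbJ (0.79) and psaC (0.87). The nearest to psbT were farther off, with rpl23 at 1.36 and rpl20 at 1.53. All 6 libraries of both genotypes enter these distances, which carry no test.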

How the data were processed

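The authors deposited 1 table of FPKM per library, rounded to 2 decimals, for 33953 features, per the file headers. Per the labels' protocols, 1.3 µg of total RNA went into each SMARTER mRNA library. The aligner, the counting method and the annotation were not given in the sources used here. For this maize series the submitters' processing notes name mouse builds (GRCm38 and mm10), so no coordinates or lengths are printed. Symbols and gene order came from the RefSeq gene table of Zm-B73-REFERENCE-NAM-5.0, by locus tag, with a match for 104 plastid and 0 nuclear IDs. Sequences of the members are not used here.

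Groups were taken from the genotype labels. Features with a mean of at least 1 FPKM were compared on log2(FPKM + 1) with limma 3.58.1 in R 4.3.3 (eBayes with trend, two-sided, Benjamini-Hochberg, threshold 0.05). This scale understates changes of low values. All members passed the minimum. Permutation tests used scipy 1.17.1. The size of 1 step was sought above 0.3 FPKM, with relative depths taken from the commonest ratio of low values between libraries. Named were all members, the 2 genes on each side (of which 1 is not reported here), the other genes of both complexes, and the 2 nearest profiles of each member. Members and lists were chosen with earlier results of these data known. Alternatives covered scaling, pseudocount, filter, variance model, replicate block and left-out libraries.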

Additional observations from a re-analysis of the deposited data

How the results depend on the processing

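Under 15 alternatives petD kept its call throughout, and psbH under all but 1. With median-of-ratios scaling over all features, psbB (-0.53) and petB (-0.32) lost their calls, psbN turned to 0.0591, 1 member was lower and 4 other photosystem II genes were higher. With quantile normalization petB (-0.44) lost its call and 4 other photosystem II genes were higher. With median-of-ratios scaling over plastid features psbH turned to -0.29, psbN passed at -1.27, psbB and petB were at -1.62 and -1.59, 0 members were higher and 4 lower, and of the other genes 0 of photosystem II and 0 of the b6f complex were higher and 8 of photosystem II lower. That scaling sets the plastid as a whole to no change, and the median of all tested features to -1.34. With no filter petB (-0.64) lost its call, and with a minimum mean of 5 FPKM 1 member was lower, because psbB, psbT and petB were not tested. Leaving out 1 library gave log2 fold changes of -0.94 to -0.63 for psbB, -0.597 to -0.0831 for psbN and -0.81 to -0.41 for petB, and 2 to 4 members lower. Over all tested features, 4613 to 7986 were higher and 7533 to 10270 lower. The 5 neighbour ratios kept their direction under each pseudocount and left-out library, though psbT to psbB ranged from 0.90 to 2.75 and psbN to psbT from -1.94 to -0.30. Other causes of these shifts were not tested.

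With the replicate number as a block, 1 member was higher and 3 lower (petD adjusted p = 5.59e-05, limma), and no call of a member changed. Same-numbered libraries had deviations from their group means that correlated at 0.0059, -0.00075 and 0.015 across features, which gives no pairing. Depth limits psbT, which rested on an estimated 0 to 5 fragments per library, and psbN, at 5 to 12.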
